A study of Homo sapiens with 16 samples.

Results

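The genes described here were 10 members of the fibroblast growth factor (FGF) system in the GRC1 cell line, namely the ligands FGF1, FGF2, FGF5, FGF7 and FGF18 and the receptors FGFR1, FGFR2, FGFR3, FGFR4 and FGFRL1. They were taken by gene symbol from a deposited table of 39007 symbols, and each of the 10 was found there. T24 is an established human bladder cancer line, and GRC1 was derived from it by repeated rounds of exposure to gemcitabine, a nucleoside analog that stops DNA synthesis. RNA was sequenced from 16 libraries, 4 at parental phase P0 (T24 cells before selection), 4 at early phase P3, 4 at intermediate phase P7 and 4 at late phase P15, where the number of the phase counts the rounds of selection survived. The resistant phases are successive stages of a single derived line, all cultured in the same medium with serum, so the phase and the history of that line cannot be told apart. All sample titles carry the letters NT, which the paper does not explain. Whether gemcitabine was present when RNA was taken is not stated in the paper either. The labels do not say whether the 4 libraries of a phase came from separate cultures, so a p-value measures the spread between these libraries, which may be technical.

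FGF ligands are secreted proteins that bind heparan sulfate chains at the cell surface and, with them, pairs of FGF receptors. Receptors FGFR1 to FGFR4 are tyrosine kinases that pass the signal through the adaptor FRS2 to the RAS, ERK and PI3K routes and through PLCG1, whereas FGFRL1 binds FGF ligands and heparin but lacks the kinase domain. The pathway is known in bladder cancer mostly through FGFR3, which is often activated in tumors of the luminal papillary kind, and through FGFR1, which is linked to a mesenchymal state.

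Values are log2(CPM + 1), where CPM is the count of a gene divided by the library total in M. From the spacing of the lowest values a total of 33.8 to 50 M counts per library was estimated, so that 1 count was worth 0.01999 to 0.02958 CPM and a listing of 0 allows a level of up to 3 counts, or 0.06 to 0.0888 CPM, by counting error only. Even counts made up 68.8 to 71.4% of the low values, and whether both mates of a read pair were counted was not tested, so a count given here for a low member may stand for less than a read pair. Within a phase the median absolute log2 difference between libraries was 0.06 to 0.1, against 0.18 to 0.58 between phases. Of 12 urothelial and epithelial markers, 7 had a mean above 1 CPM at P0, P3 and P7 (KRT7, KRT8, KRT18, KRT19, EPCAM, GATA3 and PPARG) and 5 at P15, where KRT19 and EPCAM were no longer among them. The log2 of their summed level was 11.1 in every P0 library and 9.44 to 9.59 at P15. The same measure for 7 fibroblast markers was 3.01 to 3.22 at P0 and 5.57 to 5.72 at P15. Among them COL1A1 was above 1 CPM at every phase, PDGFRB at P0 and P15, and COL3A1 at P15 alone. None of 5 leukocyte markers passed 1 CPM at any phase. Of 4 endothelial markers, CDH5 alone passed 1 CPM, and only at P0. These shifts moved with every P15 result below, and their part in them was not tested.

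A level averaging over 1 CPM across the 16 libraries was reached by 13249 genes, and by 6 of the 10 members (FGF1, FGF2, FGF5, FGFR1, FGFR4 and FGFRL1). These were compared between phases with limma. A gene is said to have risen or fallen at a Benjamini-Hochberg adjusted p below 0.05 over the 13249 genes, and is called differentially expressed when the absolute log2 difference was also at least 1, which is 2-fold on this scale. FGF7, FGF18, FGFR2 and FGFR3 lay below that level. For them the library values are given with an exact two-sided permutation test over the 70 ways of dividing 8 libraries into 4 and 4, which cannot give a p below 0.0286, and with the adjusted p of a limma fit without the filter.

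**Figure D1:**
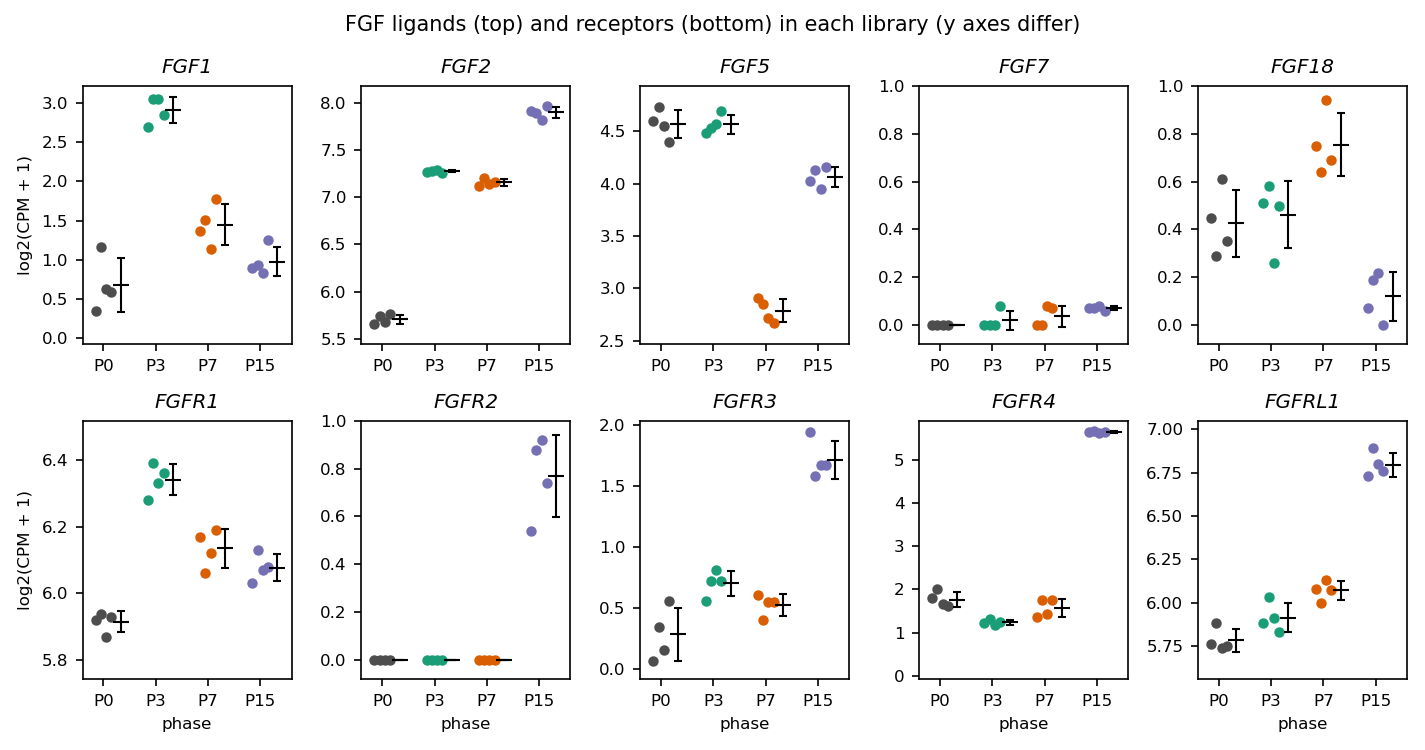
Each point is a library, placed by phase (x axis) and by log2(CPM + 1) (y axis, scaled separately for each gene), and the bar beside it is the mean and SD of the 4 libraries of the phase. FGFR4 sat between 1.18 and 2 in the 12 libraries of P0 to P7 and between 5.64 and 5.69 at P15, FGF1 was highest at P3, FGF5 was lowest at P7, and FGFR2 was listed at 0 until P15.

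FGF2, the basic FGF and a broad mitogen and survival factor, was the highest ligand per length of exon at every phase, and it rose at P3 and again at P15. Its 4 libraries read 5.66, 5.74, 5.68 and 5.76 at P0, then 7.27, 7.28, 7.29 and 7.26 at P3, then 7.12, 7.20, 7.14 and 7.16 at P7, and lastly 7.91, 7.89, 7.82 and 7.96 at P15. No pair of phases overlapped, so the order of the levels was P0, P7, P3 and P15 from low to high. The rise from P0 to P3 was 1.57 on the log2 scale (SE 0.03, adjusted p = 1.38e-21) and that from P0 to P15 was 2.19 (SE 0.03, adjusted p = 7.82e-26), which in mean CPM was 51.4 ± 1.7 against 237 ± 9.5 (SD, n = 4), a ratio of 4.62. Between P3 and P7 the level fell by 0.12 (adjusted p = 0.00341), the smallest of its 6 differences, and from P7 to P15 it rose by 0.74 (adjusted p = 2.23e-16). In bulk libraries such as these, more cells with a transcript and more of it per cell cannot be told apart, here and for each gene below.

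FGF2 (chr4:122826682-122898236, plus strand, in GRCh38 with GENCODE 44) shares 804 exon bases, 11.8% of its exon sequence, with NUDT6 on the opposite strand. The strand setting of the counting is not given in the sources used here, and reads from the shared stretch cannot be told apart without it. NUDT6, a nudix hydrolase gene also known as the FGF2 antisense gene, was far lower, with means of 1.90 at P0, 1.48 at P3, 1.82 at P7 and 2.74 at P15 (SD 0.12 to 0.17, n = 4). Its course was unlike that of FGF2 early on, since it fell by 0.42 from P0 to P3 (adjusted p = 0.000874). At P15 it was higher than at P0 by 0.84 (adjusted p = 4.08e-08), and the only comparison in which NUDT6 was called was P15 against P3, with a difference of 1.25 (adjusted p = 2.56e-11; 0.65 and not called with a pseudocount of 5 CPM).

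FGF1, the acidic FGF that can bind all of the FGF receptor kinases, showed a peak at the early phase. It read 0.34, 1.16, 0.63 and 0.59 at P0 and 2.70, 3.05, 3.05 and 2.85 at P3, and it was back at 1.37, 1.51, 1.14 and 1.77 at P7 and at 0.89, 0.93, 0.83 and 1.25 at P15. All 4 libraries of P3 lay above the other 12, whereas P0, P7 and P15 overlapped with each other, the P0 library of 1.16 reaching into P7 and P15. The rise from P0 to P3 was 2.23 (SE 0.15, adjusted p = 2.85e-12), or 0.638 ± 0.42 against 6.57 ± 0.87 CPM (SD, n = 4). From P3 it fell by 1.47 to P7 (adjusted p = 1.12e-08) and by 1.94 to P15 (adjusted p = 8.86e-12). The end of the course was close to its start, with a difference between P15 and P0 of 0.30 (SE 0.15, 95% confidence interval -0.01 to 0.60, adjusted p = 0.0661), though FGF1 passed the threshold without replicate 2 of P0 (0.46, adjusted p = 0.003) or replicate 3 of P15 (0.34, adjusted p = 0.0489) and with a replicate block (adjusted p = 0.0401). FGF1 is low in these cells, and the size of its peak depends on the pseudocount: the log2 rise at P3 was 3.32 with 0.1 CPM added and 1.04 with 5 CPM added.

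FGF5, a ligand known as a brake on hair growth, fell at the intermediate phase and came back in part at the late phase. The libraries read 4.60, 4.73, 4.55 and 4.40 at P0 and 4.48, 4.53, 4.57 and 4.69 at P3, so that these phases overlapped throughout. At P7 they read 2.91, 2.85, 2.72 and 2.67, below every other library of the series, and at P15 they read 4.03, 4.13, 3.95 and 4.16. From P3 to P7 FGF5 fell by 1.78 (SE 0.07, adjusted p = 1.18e-15), from 22.7 ± 1.5 to 5.92 ± 0.53 CPM (SD, n = 4), and from P7 to P15 it rose by 1.28 (SE 0.07, adjusted p = 3.11e-14). P3 minus P0 was -0.0025 (95% confidence interval -0.15 to 0.15, adjusted p = 0.978), while P15 stayed below P0 by a log2 difference of -0.50 (adjusted p = 8.73e-07). FGF1 was called at the step from P0 to P3, where FGF5 was not, and both were lower at P7 than at P3. An annotated exon of CFAP299, a gene not listed in the table, shares 136 bases with FGF5 on the same strand.

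FGF18, a ligand of bone and lung development, stayed below 1 CPM in every library. It read 0.45, 0.29, 0.61 and 0.35 at P0, 0.51, 0.58, 0.26 and 0.50 at P3, 0.75, 0.64, 0.94 and 0.69 at P7, and 0.07, 0.19, 0.22 and 0 at P15. P7 was the highest phase and P15 the lowest, neither overlapping another phase, and P0 and P3 overlapped. In counts the libraries held 8 to 20 at P0 and P3, 24 to 32 at P7 and 0 to 6 at P15. The exact permutation p was 0.0286, the smallest possible, in each comparison other than P3 against P0 (p = 0.743), and without the filter the limma adjusted p was 6.74e-06 for P15 against P7 and 0.00708 for P15 against P0.

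FGF7, the keratinocyte growth factor that stromal cells make for epithelial cells through FGFR2, was listed at 0 in all 4 libraries of P0. It was above 0 in 1 library of P3 (0.08), in 2 of P7 (0.08 and 0.07) and in all 4 of P15 (0.07, 0.07, 0.08 and 0.06). Each of these values corresponded to 2 counts, below the 3 counts that a listing of 0 allows. The exact permutation p for P15 against P0 was 0.0286, the smallest possible, and the limma adjusted p without the filter was 0.0108. Each P15 value still rests on 2 counts, within what a listing of 0 allows in a single library, so no rise of FGF7 is read from them. Of the 17 further FGF ligand genes, 14 were in the table and none reached a mean of 1 CPM. The highest mean over all libraries was 0.359 CPM for FGF12, an FGF that stays inside the cell, and FGF6 and FGF23 were listed at 0 in all 16 libraries. Such a mean hides the phases. Between P7 and P15 the log2 mean went from 0 to 0.445 for FGF19, from 0.025 to 0.3925 for FGF8 and from 0.1375 to 0.3475 for FGF20. It went from 0.0325 to 0.25 for FGF21 and from 0.12 to 0.295 for FGF14. FGF12 went the other way, from 0.5725 to 0.285, as did FGF11 (0.2875 to 0.1775) and FGF17 (0.015 to 0). All of these genes are below the filter and their differences were not tested.

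FGFR4, the receptor kinase that serves as the FGF19 receptor in liver, showed the widest range of all members. It read 1.80, 2, 1.66 and 1.61 at P0, 1.23, 1.32, 1.18 and 1.24 at P3, 1.37, 1.76, 1.42 and 1.76 at P7, and 5.66, 5.69, 5.64 and 5.66 at P15. The 4 late libraries lay close together and far above every earlier library, the highest of which read 2 at P0. The rise from P0 to P15 was 3.90 (SE 0.10, adjusted p = 1.2e-21), or 2.42 ± 0.43 against 49.7 ± 0.73 CPM (SD, n = 4), a ratio of 20.5. It was larger than the change of 98.5% of the tested genes in that comparison. From P7 to P15 the rise was 4.09 (adjusted p = 4.25e-22). Before it, FGFR4 had fallen from P0 to P3 by 0.53 (SE 0.10, adjusted p = 3.59e-05) and risen from P3 to P7 by 0.34 (adjusted p = 0.0043), and P7 and P0 overlapped, with P7 minus P0 at -0.19 (95% confidence interval -0.39 to 0.01, adjusted p = 0.0871). That last difference of FGFR4 passed the threshold without replicate 4 of P0 (-0.24, adjusted p = 0.0432), without replicate 2 of P7 (-0.25, adjusted p = 0.0331) or without replicate 4 of P7 (-0.25, adjusted p = 0.0343).

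FGFR3, the receptor most often mutated in bladder cancer, was low throughout and highest at P15. It read 0.07, 0.35, 0.16 and 0.56 at P0, 0.56, 0.72, 0.81 and 0.72 at P3, 0.61, 0.40, 0.55 and 0.55 at P7, and 1.94, 1.58, 1.67 and 1.67 at P15. All P15 libraries were above the other 12, and P0, P3 and P7 overlapped. P15 minus P0 was 1.43 on the log2 scale, with 2.30 ± 0.37 against 0.229 ± 0.19 CPM (SD, n = 4). The exact permutation p was 0.0286 for P15 against each earlier phase, the smallest possible, and 0.0571 for P3 against P0. Without the filter the limma adjusted p was 5.05e-09 for P15 against P0 and 0.00704 for P3 against P0.

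FGFR2, whose epithelial form is the receptor of FGF7, was listed at 0 in all 12 libraries of P0, P3 and P7 and was read at P15 alone, with values of 0.54, 0.88, 0.92 and 0.74. These are 18, 36, 32 and 30 counts, or 0.714 ± 0.20 CPM (SD, n = 4), above the 0.06 to 0.0888 CPM that a listing of 0 allows. The exact permutation p was 0.0286 against each earlier phase, the smallest possible, and the limma adjusted p without the filter was 2.39e-09 for P15 against P0. FGFR2 was thus above 0 from P15 on, the phase at which FGFR4 and FGFR3 were highest, and stayed below 1 CPM.

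FGFR1, the main receptor kinase of mesenchymal cells, moved least of the tested members. It read 5.92, 5.94, 5.87 and 5.93 at P0, 6.28, 6.39, 6.33 and 6.36 at P3, 6.17, 6.06, 6.12 and 6.19 at P7, and 6.03, 6.13, 6.07 and 6.08 at P15. P0 was lowest and P3 highest with no overlap, and P7 and P15 overlapped. FGFR1 rose by 0.43 from P0 to P3 (SE 0.04, adjusted p = 4.19e-10), fell by 0.21 from P3 to P7 (adjusted p = 4.93e-05), and ended 0.16 above P0 at P15 (adjusted p = 0.000283). The difference between P15 and P7 was -0.06 (95% confidence interval -0.13 to 0.02, adjusted p = 0.148; -0.08 and 0.0449 without replicate 2 of P7), and none of its 6 differences was called. FGFR1 (chr8:38400215-38468834, minus strand) shares 138 exon bases, 0.8% of its exon sequence, with LETM2 on the other strand, and LETM2 stood at means of 2.55, 2.94, 2.56 and 2.31 over the 4 phases. A further 387 bases are shared with an RNA gene that the table does not list.

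FGFRL1, the receptor without a kinase domain, rose at each step and most at the last. It read 5.76, 5.88, 5.74 and 5.75 at P0, 5.88, 6.03, 5.91 and 5.83 at P3, 6.08, 6, 6.13 and 6.07 at P7, and 6.73, 6.89, 6.80 and 6.76 at P15. The P15 libraries stood above all others, while P3 overlapped with P0 and with P7. The differences were 0.13 from P0 to P3 (adjusted p = 0.0145), 0.16 from P3 to P7 (adjusted p = 0.00484) and 0.73 from P7 to P15 (adjusted p = 2.01e-13). Over the whole course it rose by 1.01 (SE 0.05, adjusted p = 2.65e-16), or 54.1 ± 2.6 against 110.1 ± 5.4 CPM (SD, n = 4). That value is at the threshold for a call, and leaving out replicate 3 of P0 (0.998) or replicate 2 of P15 (0.98) brought it below 1, as did centring the libraries on a common median (0.99) and a pseudocount of 5 CPM (0.96). The rise from P0 to P3 was no longer significant without replicate 2 of P3 (0.09, adjusted p = 0.0808).

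**Figure D2:**
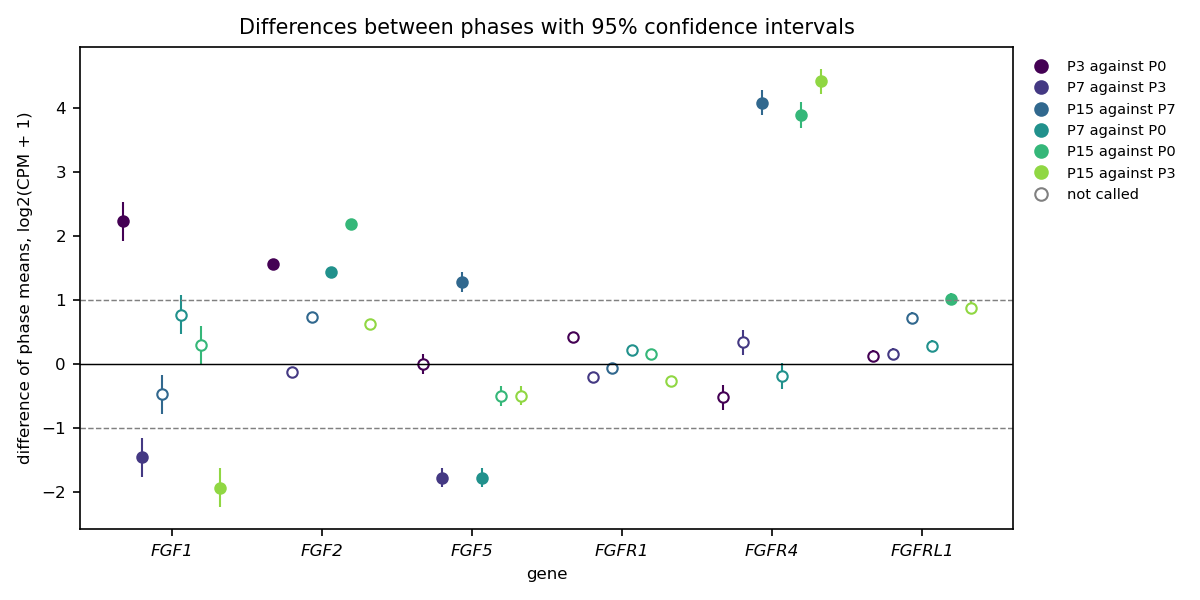
Differences of phase means on the log2(CPM + 1) scale (y axis) for the 6 tested members (x axis) in the 6 comparisons, with 95% confidence intervals from limma. Filled points are called (adjusted p below 0.05 and a difference of at least 1, dashed lines) and open points are not, and FGFR4 stands at 3.90 to 4.42 in the 3 comparisons with P15 while all 6 points of FGFR1 are open.

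The counts of called members are read against the share of all 13249 genes called in the same comparison. In P3 against P0, FGF1 and FGF2 were called, both higher, so 2 of the 6 tested members, where 4.46% of all genes were called (1.95% higher and 2.51% lower). In P7 against P3, FGF1 and FGF5 were called, both lower, where 1.83% of all genes were. In P7 against P0 the called members were FGF2, higher, and FGF5, lower, where 3.37% of all genes were. In these 3 comparisons the called members were all ligands. None of the 3 tested receptors was called, which is the usual outcome for 3 genes at such shares, so no contrast of ligands with receptors is read from it. By the adjusted p alone, FGFR1 rose (0.43) and FGFR4 fell (-0.53) in P3 against P0.

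The late phase changed a far larger part of all genes, so a call there says less about the members. In P15 against P0, FGF2, FGFR4 and FGFRL1 were called, all higher, where 23.6% of all genes were called (12.1% higher and 11.4% lower). In P15 against P7 the called members were FGF5 and FGFR4, both higher, where 25.5% of all genes were, and in P15 against P3 they were FGFR4, higher, and FGF1, lower, where 27.1% were. By the adjusted p alone 5 of the 6 members changed in P3 against P0, in P7 against P0, in P15 against P0 and in P15 against P7, where 68.7%, 62.1%, 86.2% and 86.4% of all genes did, and all 6 changed in P7 against P3 and in P15 against P3, where 58.2% and 87.2% did. The median log2 difference of the 6 members was 0.28 in P3 against P0, -0.16 in P7 against P3 and 0.65 in P15 against P0, beside -0.03, 0.01 and 0.04 over all tested genes. Comparisons with the same phase share its libraries, and their values are set side by side here only as descriptions.

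Levels of different genes can be compared only per length. Divided by the length of the joined exons in kilobases, FGF2 made up 64.67 ± 2.59% of the summed level of the 5 ligands at P0, 80.94 ± 0.93% at P3, 92.45 ± 0.28% at P7 and 92.33 ± 0.33% at P15 (SD, n = 4). FGF5 went from 32.75 ± 2.32% to 13.65 ± 0.83%, 4.42 ± 0.42% and 7.01 ± 0.28% over the same phases, and FGF1 did not exceed 4.71 ± 0.58%, its share at P3. The summed ligand level was 11.69 ± 0.45 CPM per kilobase at P0 and 37.77 ± 1.57 at P15, and most of that gain was FGF2.

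Among the receptors FGFRL1 was the highest per length at every phase, with 75.68 ± 0.43% of the summed level at P0 and 63.28 ± 0.92% at P15. FGFR4 was 3.05 ± 0.41% at P0, 1.52 ± 0.07% at P3, 2.12 ± 0.51% at P7 and 25.78 ± 0.68% at P15. FGFR1 was 20.98 ± 0.67% at P0 and 9.66 ± 0.13% at P15, although its own CPM hardly changed. FGFR4 therefore stood above FGFR1 at P15 and below it at the other phases, the 4 libraries of each phase not overlapping between these genes. This order held when the longest transcript was used as the length (FGFR4 27.86 ± 0.67% and FGFR1 18.57 ± 0.2% at P15), while the share of FGFR1 at P0 was then 37.84 ± 0.98%, since many of its 58 annotated transcripts add exon sequence. FGFR3 reached 1.19 ± 0.22% and FGFR2 0.09 ± 0.02% at P15.

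**Figure D3:**
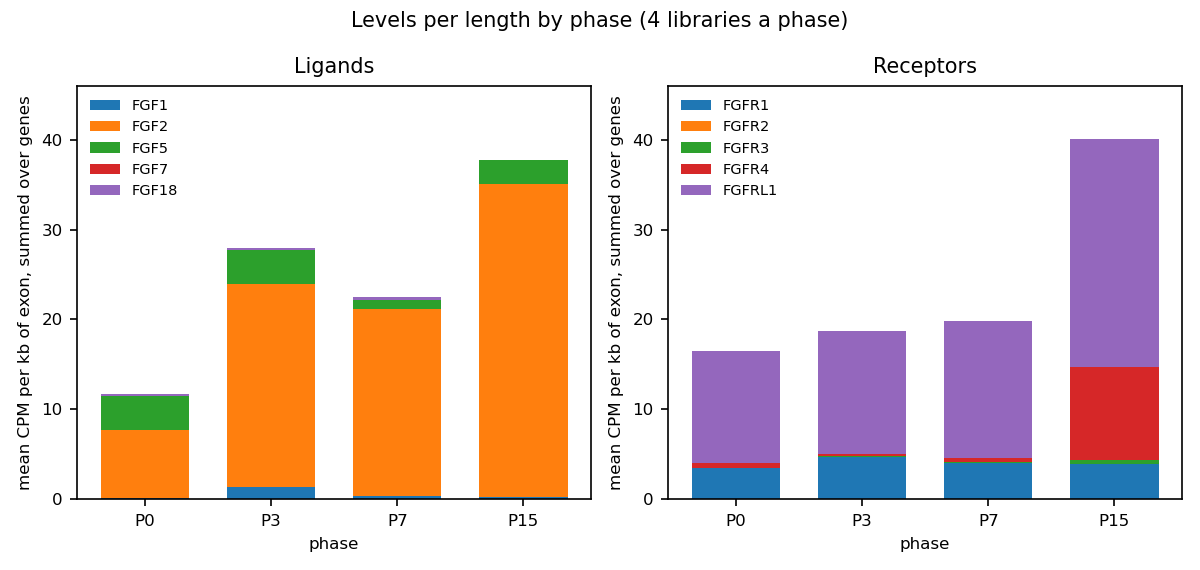
Mean CPM per kilobase of joined exons (y axis) of the ligands (left) and the receptors (right) by phase (x axis), stacked by gene, 4 libraries a phase. FGF2 makes up 92.33% of the ligand bar at P15, and FGFR4 grows from 2.12% of the receptor bar at P7 to 25.78% at P15.

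The RefSeq promoter sequences (GRCh38.p14, 250 bases before to 50 after an annotated start) of members that were higher at P15 than at P0 are shown to set the regions around their starts side by side: both starts of FGFR4, the start of FGFR3 and that of FGF2, all on the plus strand. Capitals mark GGGCGG or its reverse complement CCGCCC, the core letters of an SP1 box.
FGFR4 upstream start, chr5:177086665-177086964: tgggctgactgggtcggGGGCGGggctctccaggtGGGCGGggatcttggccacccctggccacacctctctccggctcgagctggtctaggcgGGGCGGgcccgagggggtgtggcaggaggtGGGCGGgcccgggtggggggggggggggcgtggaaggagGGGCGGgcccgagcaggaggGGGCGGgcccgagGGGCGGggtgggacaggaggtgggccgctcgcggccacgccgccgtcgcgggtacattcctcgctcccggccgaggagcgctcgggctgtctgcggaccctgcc
FGFR4 downstream start, chr5:177089300-177089599: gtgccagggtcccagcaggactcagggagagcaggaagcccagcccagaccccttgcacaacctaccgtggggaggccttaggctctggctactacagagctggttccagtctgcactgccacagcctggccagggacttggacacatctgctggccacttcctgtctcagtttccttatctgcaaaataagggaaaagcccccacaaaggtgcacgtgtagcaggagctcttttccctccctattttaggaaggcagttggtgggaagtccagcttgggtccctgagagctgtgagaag
FGFR3, chr4:1793043-1793342: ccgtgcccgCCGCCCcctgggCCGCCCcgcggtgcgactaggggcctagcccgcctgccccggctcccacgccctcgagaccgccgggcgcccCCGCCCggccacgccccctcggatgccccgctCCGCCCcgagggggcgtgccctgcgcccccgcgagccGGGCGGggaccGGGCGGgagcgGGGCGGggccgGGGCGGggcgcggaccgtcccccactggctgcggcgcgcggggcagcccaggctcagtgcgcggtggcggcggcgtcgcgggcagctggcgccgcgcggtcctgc
FGF2, chr4:122826581-122826880: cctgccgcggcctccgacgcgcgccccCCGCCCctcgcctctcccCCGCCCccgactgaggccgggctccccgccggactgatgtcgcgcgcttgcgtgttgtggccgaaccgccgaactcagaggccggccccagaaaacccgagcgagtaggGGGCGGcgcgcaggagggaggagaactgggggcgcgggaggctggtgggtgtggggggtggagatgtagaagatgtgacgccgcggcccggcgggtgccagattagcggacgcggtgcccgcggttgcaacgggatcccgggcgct

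The upstream start of FGFR4 holds 7 SP1 boxes and 78.7% G and C, FGFR3 holds 8 boxes and 86.3%, and FGF2 holds 3 boxes and 74.7%, whereas the downstream start of FGFR4 has none and 57.3%. FGFRL1, also higher at P15, holds 4 boxes and 68.3%. Over all 35116 RefSeq promoters of this length, 45.0% hold at least 1 SP1 box on either strand and the median G and C content is 58.7%. FGFR2, above 0 at P15 alone, has a start with 5 boxes and 79.3% and 4 others with 0 or 1 box and 47.3 to 50.7%. Among members that were not higher at P15 than at P0, FGF18, lowest at P15, has 3 boxes and 77.7% at its start, and the 4 starts of FGF1 have 0 or 1 box and 44.3 to 60%. FGF5, lower at P15 than at P0, has 1 box and 67.0% at its upstream start and 0 boxes and 50.3% at its downstream start. FGF7, for which no rise is read, has 0 boxes and 40.3%. Of the other motifs searched on both strands, the TATA box (TATAAA, in 11.5% of all promoters) occurred only at the downstream start of FGF5, where it was counted on both strands from overlapping letters, and the AP-1 site (TGANTCA, 7.7%) only at a start of FGF1. The E-box (CACGTG, 7.3%) occurred at the downstream start of FGFR4 and at FGFRL1. The GATA site (AGATAA, 10.3%) occurred at the downstream start of FGFR4 and at a start of FGFR2, and the ETS site (CCGGAAG, 10.3%) at none of the 18 starts read. These starts belong to 9 members. Starts on chromosome 8, where FGFR1 lies, were left out, so no statement on starts or motifs here covers FGFR1. A match is a run of letters in the window and not a measured site, and the library values do not tell which start was used.

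To describe the region around each member, the tested genes nearest to it were read as well, a comparison chosen after the member values had been seen. FGFR4 (chr5:177086905-177098144, plus strand) rose by 3.90 from P0 to P15, while its 5 nearest tested genes on each side ranged from -0.65 (NSD1, a histone methyltransferase gene) to 0.69 (UNC5A, a netrin receptor gene) with a median of 0.03. FGF2 rose by 2.19 and its 10 neighbours had a median of 0.73 and a range of -0.75 (ANXA5, annexin A5) to 2.69. The top of that range was SPRY1, a feedback inhibitor of the FGF pathway. All of these neighbours except ANXA5 were higher at P15 than at P0, among them FAT4 (1.81), SPATA5 (1.02) and ANKRD50 (1.01). FGFRL1 (chr4:1009936-1026898, plus strand) rose by 1.01 with a neighbour median of 0.17 and a range of -0.85 to 1.12. For FGFR1 the 10 neighbours lay between -1.79 and -0.08, all below the 0.16 of FGFR1 itself.

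**Figure D4:**
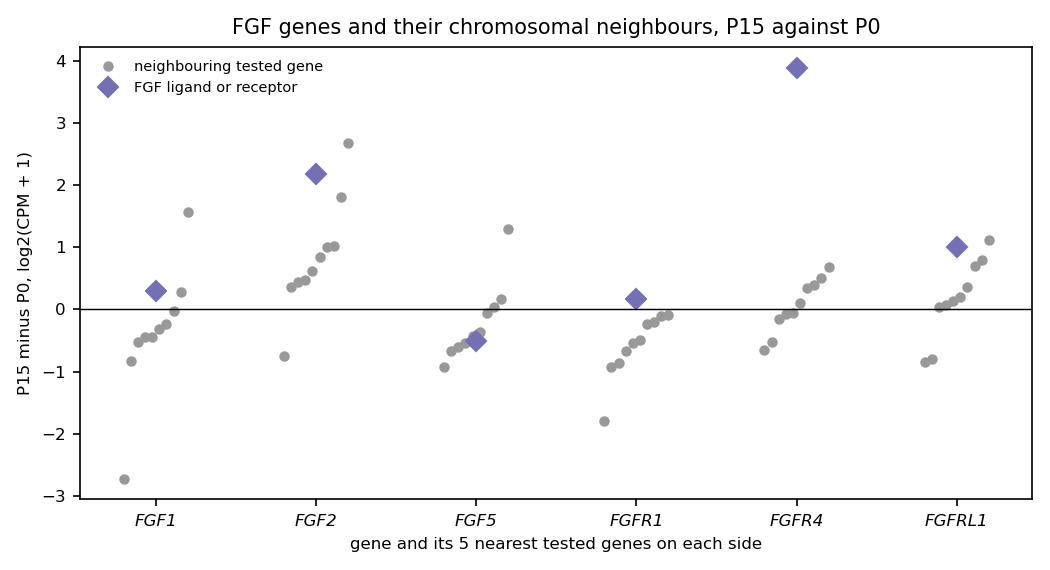
P15 minus P0 on the log2(CPM + 1) scale (y axis) for each tested member (diamond) and its 5 nearest tested genes on each side (gray points, sorted by value). FGFR4, at 3.90, stands above all 10 of its neighbours, none of which exceeds 0.69, while FGF2, at 2.19, lies inside the range of its neighbours.

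The other genes of the pathway were counted in 5 lists, beside the 17 further ligands. Of all 106 listed genes 74 were tested, and 30 of these (40.5%) were called in P15 against P0, 18 higher and 12 lower, where 23.6% of all genes were called. In P3 against P0 the lists held 5 calls (6.76%, 4 higher and 1 lower, beside 4.46% of all genes) and in P7 against P3 they held 4 (5.41%, 1 higher and 3 lower, beside 1.83%). Each list count in P15 against P0 below is read beside the same 23.6% of all genes (12.1% higher and 11.4% lower). The named genes of each list below are those with the largest called changes.

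Among 14 tested co-receptors and carrier proteins 5 were called higher and 3 lower at P15 against P0, with a list median of 0.57. FGFBP1, a secreted carrier that frees FGF2 from the matrix, first fell with the resistant phases and then rose beyond its start: its means were 3.67, 1.6, 2.09 and 7.86 at P0, P3, P7 and P15 (SD 0.09 to 0.19, n = 4), a difference of 4.19 between P15 and P0 (adjusted p = 4.91e-23). GPC4, a glypican that carries heparan sulfate, rose by 2.46 (adjusted p = 1.46e-16). L1CAM, a neural cell adhesion molecule that can engage FGFR1, held 9.88, 9.79 and 10.4 until P7 and 4.23 at P15, where it fell by 5.66 against P0 (adjusted p = 2.09e-33), and the syndecan SDC4 fell by 1.13 (adjusted p = 2e-21).

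Of 12 tested heparan sulfate enzymes 1 was called higher and 3 lower at P15 against P0, with a list median of -0.50. SULF2, which removes sulfate groups from heparan sulfate outside the cell, went from 5.67 at P0 to 0.97 at P15 and so fell by 4.70 (SE 0.06, adjusted p = 4.77e-28), and HS3ST1, a sulfotransferase, fell by 1.51 (adjusted p = 7.29e-13). EXTL2, a glycosyltransferase of the chain's linker, rose by 1.68 (adjusted p = 2.5e-19). The early phase had its own changes here, with HS6ST3, a further sulfotransferase, higher by 2.5 at P3 (adjusted p = 2.36e-16). HPSE, the heparanase that cuts the chains, rose by 1.98 from P0 to P3 (adjusted p = 3e-16) and fell by 1.34 from P3 to P7 (adjusted p = 1.46e-12), and at P15 it was above P0 by 0.58 (adjusted p = 5.07e-07). With a pseudocount of 5 CPM the change of HS3ST1 was -0.48 and no longer called.

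All 24 adaptors and signal relays were tested, and 2 were called at P15 against P0, where 23.6% of all genes were. Both were lower: PLCG1, the phospholipase that FGF receptors bind, by -1.03 (adjusted p = 2.41e-20) and PIK3R1, the regulatory subunit of PI3K, by -1.01 (adjusted p = 1.74e-14). Both sit at the threshold. PLCG1 was no longer called with quantile normalization (-0.98), and PIK3R1 was not with a pseudocount of 5 CPM (-0.88) or without replicate 1 or 3 of P0 or replicate 1 or 2 of P15 (-0.99 to -0.965). None was called in P3 against P0, where 4.46% of all genes were, nor in P7 against P3, where 1.83% were. By the adjusted p alone 10 rose and 7 fell in P3 against P0, where 68.7% of all genes changed. By the same measure 6 rose and 9 fell in P7 against P3, where 58.2% of all genes changed.

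Of 12 genes known as targets of FGF and ERK signaling 6 were called higher and 1 lower at P15 against P0, with a list median of 1.12. EGR1, an immediate early transcription factor, rose at P3 and at P15, as FGF2 did, with means of 2.39 ± 0.48 at P0, 5.63 ± 0.31 at P3, 3.36 ± 0.31 at P7 and 7.70 ± 0.47 at P15 (SD, n = 4), and between P3 and P7 it fell by 2.27 (adjusted p = 2.34e-09), where FGF2 fell by 0.12. IER3, an early response survival gene, rose by 3.06 at P15 against P0 (adjusted p = 4.01e-24). CCND1, cyclin D1, fell by 1.12 (adjusted p = 9.67e-22), in the opposite direction from EGR1 and IER3. ETV1, an ETS factor, fell by 0.99 from P0 to P3 (adjusted p = 1.65e-13) and rose by 1.18 between P3 and P7 (adjusted p = 1.77e-14), with means of 5.08, 4.09, 5.27 and 5.08 over the 4 phases. Its fall at P3 missed the 2-fold threshold and passed it without replicate 1 (-1.0), 2 (-1.0) or 3 (-1.03) of P3.

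Feedback inhibitors moved in both directions, 6 of 12 called higher and 3 lower at P15 against P0, with a list median of 0.84. IL17RD, a membrane inhibitor of FGF receptors also called SEF, rose by 3.12 (adjusted p = 1.58e-18) and SPRY1, a Sprouty protein, by 2.69 (adjusted p = 3e-17). DUSP5, a phosphatase of nuclear ERK, had means of 5.15, 6.33, 5.33 and 7.35 over the 4 phases, and was called higher at P3 against P0 (1.19, adjusted p = 1.81e-16) and lower at P7 against P3 (-1.0, adjusted p = 1.28e-14). DUSP4, another nuclear ERK phosphatase, fell by 1.94 at P15 against P0 (adjusted p = 3.3e-23) and SPRY3 by 1.13 (adjusted p = 5.03e-12; -0.55 and not called with a pseudocount of 5 CPM). The call of DUSP5 at P7 against P3 sits at the threshold and was lost with quantile normalization (-0.96), with a pseudocount of 5 CPM (-0.94) and without replicate 3 or 4 of P3 or replicate 2, 3 or 4 of P7 (-0.98 to -0.997).

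**Figure D5:**
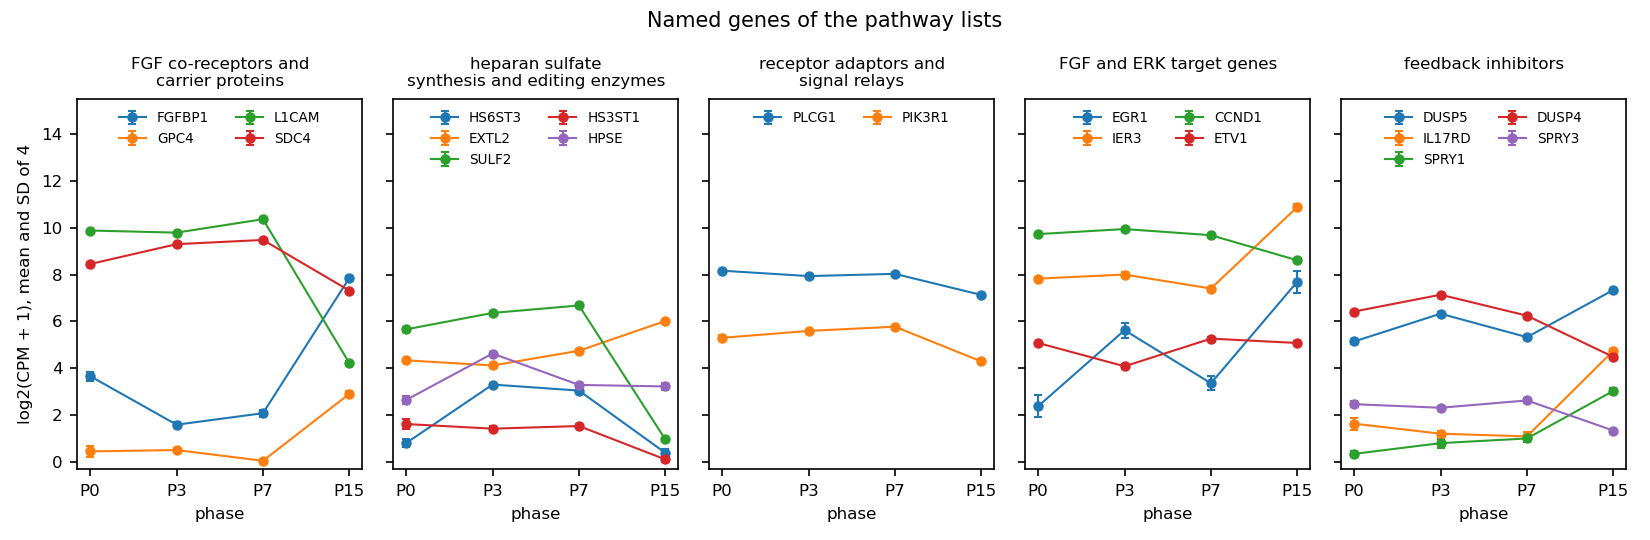
Means of log2(CPM + 1) with the SD of 4 libraries (y axis) by phase (x axis) for the named genes of the 5 lists. FGFBP1 goes from 3.67 at P0 to 7.86 at P15, L1CAM from 9.88 to 4.23 and SULF2 from 5.67 to 0.97, whereas PLCG1 goes only from 8.17 to 7.13.

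Genes whose course over the 16 libraries was most like that of a member were listed for the 4 tested members with the widest range of phase means. The libraries of a phase share their treatment, and the correlations are descriptions. FGFR4 was most like BCAT2, a mitochondrial branched-chain aminotransferase (Pearson r = 0.998), the locus RP11-488P3.1 (0.997) and RSPRY1 (0.997), and 10.8% of all tested genes had an r above 0.95 with it, while by Spearman's rank correlation 0.0679% did. FGF2 was most like KCTD15 (0.996), CLDND1 (0.995) and PLAUR, the urokinase receptor (0.989), and 0.536% of genes had an r above 0.95 (0.521% by Spearman). FGF1 was most like the splicing protein gene SNRPC (0.982) and CORO1C, a coronin that binds actin (0.968), with 0.0906% of genes above 0.95 (0.0151% by Spearman). FGF5 was most like the pentraxin PTX3 (0.979), NOP2 (0.962) and the mitochondrial carrier UCP2 (0.952), with 0.0302% above 0.95 (0 by Spearman). The larger share for FGFR4 thus holds for Pearson's r and not for ranks.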

How the data were processed

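Per the paper's methods and the submitters' processing notes, the authors aligned paired-end reads to GRCh38 with STAR 2.6.1a and counted them on genes, and they deposited log2 of CPM plus 1 to 2 decimals. The paper also describes quantile normalization and median centering of its expression values. Turned back to CPM, the deposited values sum to 999894 to 1000095 per library, and the main fit used them without these 2 steps. The annotation release, the strand setting and the treatment of reads shared by genes are not given in the sources used here. Counts were inferred only for low values, from the step between them.

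The deposited log2 values were fitted with limma 3.58.1 (R 4.3.3), a coefficient for each phase, all 16 libraries together and a trended variance prior, and p-values were adjusted by Benjamini-Hochberg for the 13249 genes averaging over 1 CPM. The procedure was tested on simulated data. Other steps used Python 3.11.15, numpy 2.4.6, pandas 2.3.3 and matplotlib 3.10.9. Positions and lengths come from GENCODE 44 on GRCh38, the build of the methods (12163 tested symbols matched). Promoters come from RefSeq (9 of 10 members read, with chromosome 8, which holds FGFR1, left out).

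The members, the gene lists and the alternatives were chosen with earlier results of these data known. Named were all members, genes sharing exon sequence with them, the called genes of each list with the largest changes (up to 2 each way for P15 against P0, 1 each way for P3 against P0 and P7 against P3), and the 3 genes most correlated with each of 4 members, of which 1 is not reported here. Results were recomputed with other filters and pseudocounts (0.1 and 5 CPM), other scalings, replicate blocks, other tests and single libraries left out.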

Additional observations from a re-analysis of the deposited data

Results flagged for a closer look

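In 4 of 120 groups of 4 libraries (10 members, NUDT6 and 20 named pathway genes, leaving out groups with equal values), 1 library stood apart by Dixon's gap ratio, which chance alone gives in about 1 of 20 groups. The 4 cases fell on 4 different libraries, and 2 of them concern members. FGF7 at P3 had a ratio of 1.0, since replicate 4 read 0.08 and the other libraries were listed at 0, a gap of 2 counts. FGFRL1 at P0 had a ratio of 0.86, with replicate 2 at 5.88 above 5.74 to 5.76. EGR1 at P7 had a ratio of 0.88, with replicate 3 at 3.82 above 3.17 to 3.25. SPRY3 at P15 had a ratio of 0.87, with replicate 1 at 1.24 below 1.37 to 1.39.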

How the results depend on the processing

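The counts of called members were recomputed under 28 alternatives. Without a fold threshold they were 5 in P3 against P0, P7 against P0, P15 against P0 and P15 against P7, and 6 in P7 against P3 and P15 against P3, and 69 of the pathway list genes passed in P15 against P0, against 30 with the threshold. With 1 CPM required in all 16 libraries FGF1 was not tested and 1 member was called in P3 against P0, P7 against P3 and P15 against P3. With a pseudocount of 5 CPM 1 member was called in P7 against P3, P15 against P7 and P15 against P3, and the treat test called 1 in P7 against P3. Leaving out 1 library gave 2 to 3 members in P15 against P0 and 2 in each other comparison, and 29 to 30 pathway list genes, with the tested genes held fixed. The pathway list count was 23 with 1 CPM in all libraries and with a pseudocount of 5, and 24 with the treat test. Without the filter 4, 3 and 3 members were called in P15 against P0, P7 and P3, FGFR3 being added. With a replicate block by the number in the sample descriptions, or by that in the sample titles (which differs for 14 libraries), every count of members was as without it (2, or 3 in P15 against P0), and 3125 and 3126 of all genes were called in P15 against P0, against 3126. Deviations of same-numbered libraries correlated at -0.147 to 0.218 (24 pairs in each numbering). Pairs with unlike numbers were not set beside them, so whether same-numbered libraries share more than a number was not tested. With the block the difference of FGF1 between P15 and P0 (0.30) passed the adjusted p threshold (0.0401 and 0.0444).

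Of 954 recomputed member differences, 937 were counted as unchanged in direction and in side of the adjusted p threshold. Among them are those of FGF7, FGF18, FGFR2 and FGFR3, which had no test in the main fit. Their only alternative, the fit without the filter, returns the same difference of phase means, so these could not move. By the adjusted p and the fold together, 7 member calls were lost and 1 was gained among the 930 tested differences. With a pseudocount of 5 the differences of FGFRL1 in P15 against P0 (0.96), FGF1 in P7 against P3 (-0.77) and P15 against P3 (-0.95) and FGF5 in P15 against P7 (0.93) were no longer called, nor was FGFRL1 in P15 against P0 with the median shift (0.99) or without replicate 3 of P0 (0.998) or replicate 2 of P15 (0.98), and FGF1 in P7 against P0 was called with a pseudocount of 0.1 (1.45). FGF5 in P3 against P0 changed sign in 6, at 0.029 with quantile normalization, 0.0125 with the median shift and among the values without 1 library (-0.059 to 0.051), with adjusted p of 0.501 to 1. Among the pathway genes ETV1 in P15 against P0 changed sign with quantile normalization (-0.017), with the median shift (-0.02) and without single libraries (-0.043 to 0.037), and GPC4 in P3 against P0 changed sign without replicate 4 of P0 (-0.044 to 0.14 over all libraries). These differences were close to 0 and not significant. The other member changes of the adjusted p side were for FGF1 in P15 against P0 (5 alternatives), FGFR4 in P7 against P0 (3), FGFR1 in P15 against P7 (2) and FGFRL1 in P3 against P0 (1). At a depth of 33.8 M counts or more, 3 counts correspond to at most 0.0888 CPM, which limits statements on FGF7.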
